A study of Sus scrofa domesticus with 9 samples.

Results

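Solute carriers (SLC) are membrane proteins that move nutrients, metabolites, metals and drugs across the plasma membrane or the membranes of organelles. Counts per library were given for 1054 genes that the authors had selected as differing between the groups of livers compared below. Of these genes, 32 solute carriers are described here. Members were every row whose symbol begins with SLC, apart from 9 symbols that were left out beforehand, 1 of which (SLC30A1) also had counts per library. They were grouped by the substrate that the human protein of the same name is known to carry, which gave 8 carriers of organic ions, 7 of amino acids and peptides, 5 mitochondrial carriers, 4 of metals, 3 of sugars, 3 of nucleosides or vitamins and 2 of inorganic ions. No carrier classed under lipids was among them.

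The samples were livers of preterm Yorkshire piglets (Sus scrofa domesticus), delivered by caesarean section, given a central venous catheter and killed on day of life 15. The PN group (6 libraries) received parenteral nutrition, that is, nutrients infused into a vein, with a soybean oil lipid emulsion until the end, and medium chain triglyceride vehicle by mouth tube every day. The bottle-fed group (3 libraries) also started on PN, was weaned off it within the first days and was then fed sow milk replacer. The groups came from separate litters, so litter, feeding and vehicle cannot be told apart. The study's methods leave out 1 outlier of the PN group without naming it. PN 5 was taken to be that library, from the point circled in the study's plot of samples, and was left out of the tests. Its values are given beside the others.

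In the liver, transporters on the blood-facing side of the hepatocyte take up amino acids, organic ions, sugars and vitamins, those on the bile-facing side release organic ions and drugs into bile, and the SLC25 carriers exchange metabolites between cytosol and mitochondria. The direction of many of them follows the gradient of sodium, protons or the substrate itself. A transcript level does not measure transport.

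Every member had been selected by the authors for a difference between PN and bottle-fed livers in these same libraries, so the differences are given as a description. Sums by class below add up these selected members only, and do not describe a substrate class as a whole. With edgeR's quasi-likelihood test over all 1054 genes, 22 members were higher and 10 lower in the 5 PN livers than in the 3 bottle-fed livers at an adjusted p under 0.05. The same test called 99.7% of all 1054 genes, 54.1% higher and 45.6% lower, so that the counts cannot be read as a result. The adjusted p of the members ran from 4.5e-05 (SLC13A5) to 0.0407 (SLC47A1) in edgeR, and was adjusted only over genes selected in this way. Normalized counts (each library's raw counts over its own size factor) did not overlap between the groups for 30 members, 20 higher and 10 lower with PN. This held for 85.1% of all 1054 genes (43.5% higher and 41.6% lower). The median log2 ratio of PN to bottle-fed means was 1.09 over the members and 0.99 over all 1054 genes, on the scale of normalized count plus 1. No member had a ratio between -0.92 and 0.97. This signed median therefore depends on how many members were higher, and is not a typical change.

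**Figure D1:**
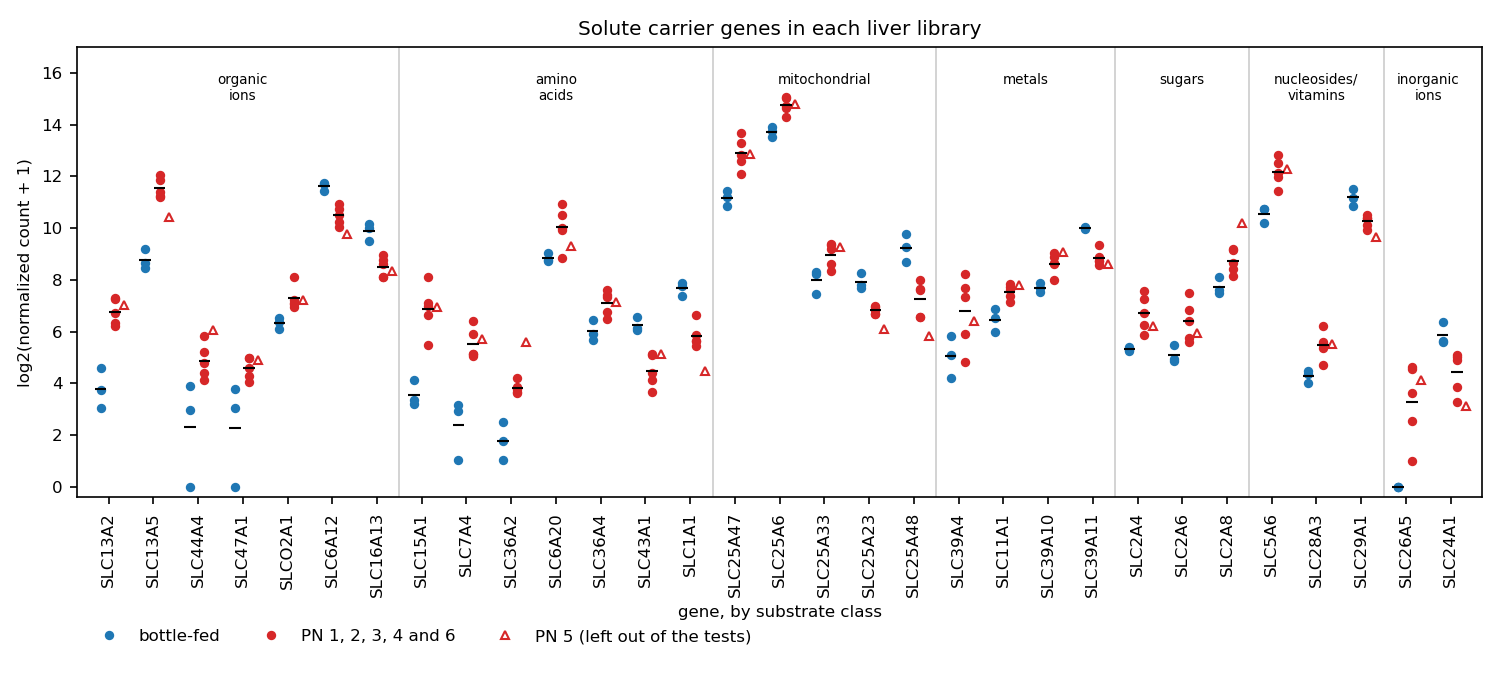
Level of 31 of the genes in each library, as log2(normalized count + 1), by substrate class. Points are livers, black bars are group means on that scale, and open triangles are PN 5. Bottle-fed and PN points overlap for SLC6A20 and SLC39A4 and for no other gene.

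The depth of the bottle-fed libraries was 17106838 to 24025142 counts and that of the PN libraries 17337946 to 23421807. The members took 0.159% to 0.205% of the counts of a bottle-fed liver and 0.243% to 0.331% of those of a PN liver, PN 5 included. In a bulk sample, fewer cells of a type and less RNA per cell cannot be told apart. Of 6 cholangiocyte (bile duct cell) markers, 3 had counts per library (EPCAM, SPP1 and KRT7), and their summed normalized count was 239 to 329 in bottle-fed livers, 637 to 1714 in the kept PN livers and 2216 in PN 5. Of 8 hepatocyte markers only CPS1, an enzyme of the urea cycle, had counts per library, with 49685 to 58313 in bottle-fed livers, 18459 to 48854 in the kept PN livers and 5290 in PN 5. Of 6 endothelial markers only VWF had counts per library, with 275 to 385 in bottle-fed livers, 392 to 1208 in the kept PN livers and 631 in PN 5. Of 8 stellate cell and fibroblast markers only DCN did, with 128 to 673, 84.5 to 174 and 161, so that its groups overlapped. None of the 10 macrophage, 10 erythroid, 8 T and NK cell or 5 B cell markers had counts per library. Counts were given only for genes that the authors had selected as differing between the groups. A marker without counts is therefore not shown to be absent from the livers. The markers with counts were selected for a difference, and do not measure the share of a cell type. The part of these marker shifts in the levels of the transporters was not tested.

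The largest class by number carried organic ions, and its SLC13 members were among those with the largest fold changes. SLC13A5 (ENSSSCG00000017888, chr12:50679252-50710983, Sscrofa11.1) encodes the sodium-coupled citrate transporter of the hepatocyte plasma membrane. Its normalized count was 2368, 2702, 4195, 3682 and 2405 in PN 1, 2, 3, 4 and 6 and 399, 347 and 589.5 in bottle-fed 1, 2 and 3. The order of libraries is the same in all lists that follow. The lowest PN liver lay far above the highest bottle-fed liver, with an edgeR log2 fold change of 2.79 ± 0.32 (SE). Here and below this SE is not an output of edgeR. It was derived as the absolute log2 fold change over the square root of the F statistic of edgeR's test, and is approximate. PN 5 lay below the other PN livers at 1371. SLC13A2 (chr12:44730773-44754468) encodes the sodium-dicarboxylate cotransporter known from kidney and intestine, which takes up succinate and citrate. Its counts were lower throughout, 74.1, 80.2, 104, 157 and 151 with PN and 12.3, 23.1 and 7.29 in bottle-fed livers, and the groups were again far apart (log2 fold change 3.00 ± 0.48). Per length, SLC13A5 went from 2.67 ± 0.764 FPKM (SD, n = 3) to 18.3 ± 4.90 FPKM (SD, n = 5). SLC13A2 went from 0.244 ± 0.138 to 1.94 ± 0.661 FPKM, so that SLC13A5 was the more abundant of the pair in both groups. Annotated exons of SLC13A2 share 487 bases with the long noncoding RNA LOC106505483 on the opposite strand. Those of SLC13A5 share 207 with C12H17orf100 and 88 with FBXO39, also on the opposite strand. Whether reads of these genes were counted was not tested.

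The sequence at the start of the gene was read for the members from the RefSeq annotation of the same genome build, over the 250 bases before and 50 bases after the start. The core of the xenobiotic response element, GCGTG, which the aryl hydrocarbon receptor binds, was searched on both strands. Both SLC13 genes are shown because they moved together by a similar factor and SLC1A1 because it was lower and held several matches. Capitals mark GCGTG or its reverse complement CACGC, and the letters run 5′ to 3′ on the strand of the gene.
SLC13A5, chr12:50679650-50679949, plus strand: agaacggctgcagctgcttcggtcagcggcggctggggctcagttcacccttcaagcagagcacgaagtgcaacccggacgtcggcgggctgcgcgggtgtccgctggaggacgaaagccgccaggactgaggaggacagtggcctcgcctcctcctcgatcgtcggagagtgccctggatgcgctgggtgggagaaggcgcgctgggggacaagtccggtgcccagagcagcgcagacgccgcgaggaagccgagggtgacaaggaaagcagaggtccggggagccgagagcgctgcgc
SLC13A2, chr12:44732788-44733087, plus strand: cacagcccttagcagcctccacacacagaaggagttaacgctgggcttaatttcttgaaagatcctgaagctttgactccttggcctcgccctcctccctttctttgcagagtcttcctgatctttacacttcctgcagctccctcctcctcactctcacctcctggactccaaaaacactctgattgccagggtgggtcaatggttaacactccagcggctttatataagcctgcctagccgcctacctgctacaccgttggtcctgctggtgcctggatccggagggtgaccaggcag
SLC1A1, chr1:217441594-217441893, minus strand: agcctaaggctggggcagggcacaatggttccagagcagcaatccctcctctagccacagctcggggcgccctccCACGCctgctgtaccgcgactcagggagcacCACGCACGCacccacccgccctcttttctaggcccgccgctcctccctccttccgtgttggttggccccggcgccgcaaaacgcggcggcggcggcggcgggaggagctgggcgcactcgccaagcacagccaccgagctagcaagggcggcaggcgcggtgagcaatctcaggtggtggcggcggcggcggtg
Neither SLC13 window held a match, and the SLC1A1 window held 3. The window of SLC39A4, a member that was higher with PN, held 6. The RefSeq start lay 648 bases from the start in the deposited table for SLC13A5, 2265 for SLC13A2 and 31 for SLC1A1. It lay much farther off for some members not shown, such as SLC36A2 (72347 bases) and SLC24A1 (27143), whose windows may miss the start of the counted gene. A window could be read for 30 of the 32 members, and 11 of them held a match (7 of the 20 that were higher and 4 of the 10 that were lower with PN), beside 37.4% of all 19556 promoters of this length. The metal response core TGCNCNC, which can share bases with GCGTG (as in TGCACGC), occurred in 13 of 30 windows, beside 55.0% of all promoters. The amino acid response motif TGATGNAA occurred in 2 (SLC25A48 and SLCO2A1), beside 2.79%. These are matches of letters and not binding sites.

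The other organic ion carriers given in full here were lower with PN. SLC6A12, the betaine and GABA transporter, which takes up osmolytes, had 1461, 1951, 1711, 1193 and 1055 with PN and 2755, 3308 and 3453 when bottle-fed. PN 5 lay below every other liver for this gene at 881 (log2 fold change -1.10 ± 0.25). SLC16A13, a monocarboxylate transporter of the family that carries lactate and ketone bodies, had 392, 492, 273, 432 and 276 with PN and 1015, 1156 and 731 when bottle-fed and a log2 fold change of -1.37 ± 0.27. Its annotated exons share 2397 bases with those of SLC16A11 on the opposite strand, and no source used here gives the strand setting of the counting.

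Another 3 organic ion carriers were higher with PN, of which only SLCO2A1 reached a mean of 50 normalized counts in a group. SLCO2A1, which clears prostaglandins from the extracellular fluid, ran from 122 to 274 with PN and from 67.9 to 90.6 in bottle-fed livers (log2 fold change 1.03 ± 0.34). SLC44A4, a choline transporter-like protein that carries thiamine pyrophosphate, ran from 16.6 to 56.5 with PN and from 0 to 13.9 when bottle-fed. SLC47A1 encodes MATE1, which exports organic cations across the bile-facing membrane in exchange for protons, and ran from 15.8 to 30.8 with PN and from 0 to 12.7 when bottle-fed. Both changed with the libraries used. The log2 fold change of SLC44A4 was 2.11 ± 0.81, and 3.16 without bottle-fed 1, and its adjusted p in edgeR was 0.0593 without bottle-fed 2 and 0.0506 without PN 2. That of SLC47A1 was 1.86 ± 0.82, but 1.24 without bottle-fed 1 and 2.74 without bottle-fed 2. Its adjusted p in edgeR was 0.0846 without bottle-fed 1, 0.0784 without bottle-fed 3, 0.0636 without PN 1, 0.0559 without PN 3 and 0.0703 without PN 6.

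Carriers of amino acids and peptides held the widest fold change of any member with counts in every library. SLC15A1 (ENSSSCG00000009513, chr11:67652193-67710933) encodes PEPT1, the proton-coupled carrier of dipeptides and tripeptides that is best known from the intestinal brush border. It had 136, 274, 44.2, 98.2 and 126 normalized counts with PN and 8.18, 9.22 and 16.7 in bottle-fed livers. Every PN liver, PN 5 included (123), lay above the bottle-fed livers, and the PN livers differed 6.20-fold among themselves (log2 fold change 3.57 ± 0.60). SLC6A20, a sodium-coupled transporter of proline and other imino acids, was the most abundant of the members in this class. It had 1466, 1962, 1026, 974 and 463 with PN and 528, 435 and 426 when bottle-fed. PN 6 fell within the bottle-fed range, and the groups therefore overlapped (exact permutation test, two-sided, p = 0.0714, n = 5 and 3; p = 0.0595 with PN 5). The log2 fold change was 1.35 ± 0.39, with an adjusted p of 0.00608 in edgeR. SLC6A20 shares 1305 exonic bases with SACM1L on the opposite strand.

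A pair of amino acid carriers was lower with PN. SLC1A1 (chr1:217366499-217441674) encodes a high-affinity glutamate and aspartate transporter that also takes up cysteine, and had 41.9, 97.9, 57.7, 48.2 and 49.1 with PN and 233, 214 and 167 in bottle-fed livers. PN 5 was the lowest liver at 21.1, and the log2 fold change was -1.79 ± 0.33. SLC43A1, a sodium-independent carrier of large neutral amino acids such as leucine, had 11.7, 33.8, 16.4, 20.4 and 33.1 with PN and 65.4, 70.3 and 92.7 when bottle-fed (log2 fold change -1.72 ± 0.42). All PN livers lay below all bottle-fed livers for both genes.

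The other members of the class were higher with PN. SLC36A4, which carries proline and tryptophan, ran from 87.5 to 194 with PN and from 50.7 to 86.4 in bottle-fed livers, where PN 3 and bottle-fed 3 nearly met (log2 fold change 1.14 ± 0.36). SLC7A4, a member of the cationic amino acid transporter family, ran from 32.7 to 84.5 with PN and from 1.04 to 8.07 when bottle-fed (log2 fold change 3.19 ± 0.66). SLC36A2, a proton-coupled carrier of glycine, alanine and proline, ran from 11.4 to 17.6 with PN and from 1.04 to 4.61 when bottle-fed (log2 fold change 2.28 ± 0.71), with PN 5 well apart at 47.7. Its exons share 156 bases with SLC36A3 on the same strand. The class sum was 9.68 ± 0.604 FPKM (SD, n = 3) in bottle-fed livers and 17.8 ± 6.64 FPKM (SD, n = 5) with PN, and SLC6A20 made up 44.6% of it in bottle-fed and 61.7% in PN livers.

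Carriers of the inner mitochondrial membrane held the most abundant member. SLC25A6 (ENSSSCG00000033673, on an unplaced scaffold) encodes an ADP/ATP translocase, which exports ATP from mitochondria in exchange for ADP. It had 33102, 27079, 20074, 34272 and 25318 normalized counts with PN and 11843, 13729.5 and 15260.5 in bottle-fed livers. The groups did not overlap, and the log2 fold change was 1.04 ± 0.29. Reads of this gene may be shared with the related genes SLC25A4 and SLC25A5, which would make its value uncertain. Such sharing was not tested. SLC25A47 (ENSSSCG00000002515, chr7:121192433-121210377), a carrier expressed mainly in liver, had 7270.4, 4310.1, 13214, 10027 and 6128 with PN and 1839.6, 2348 and 2803 when bottle-fed. PN 3 stood highest and PN 2 lowest of the PN livers, which differed 3.07-fold, and the log2 fold change was 1.81 ± 0.37. SLC25A33, a carrier of pyrimidine nucleotides, ran from 319 to 661 with PN and from 175 to 315 when bottle-fed (log2 fold change 0.98 ± 0.32, adjusted p in edgeR 0.0556 without bottle-fed 3). The class sum was 233 ± 36.8 FPKM (SD, n = 3) in bottle-fed livers and 534 ± 103 FPKM (SD, n = 5) with PN.

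The remaining mitochondrial carriers moved the opposite way. SLC25A48 (chr2:137986826-138035582), a carrier of choline, had 256, 192, 94.3, 202 and 92.5 with PN and 409, 621 and 874 in bottle-fed livers, and PN 5 was the lowest at 56.6. Its log2 fold change of -1.92 ± 0.36 was the lowest of all members. SLC25A23, a calcium-dependent carrier that exchanges ATP-magnesium for phosphate, had 101, 103, 122, 126 and 113 with PN and 206, 225 and 308 when bottle-fed (log2 fold change -1.12 ± 0.26). The kept PN livers lay close together for this gene, and PN 5 fell below them at 67.7. Per length both were minor, with 21.9 ± 8.02 FPKM for SLC25A48 and 2.48 ± 0.545 FPKM for SLC25A23 in bottle-fed livers (SD, n = 3), beside 131 ± 16.3 FPKM for SLC25A6.

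**Figure D2:**
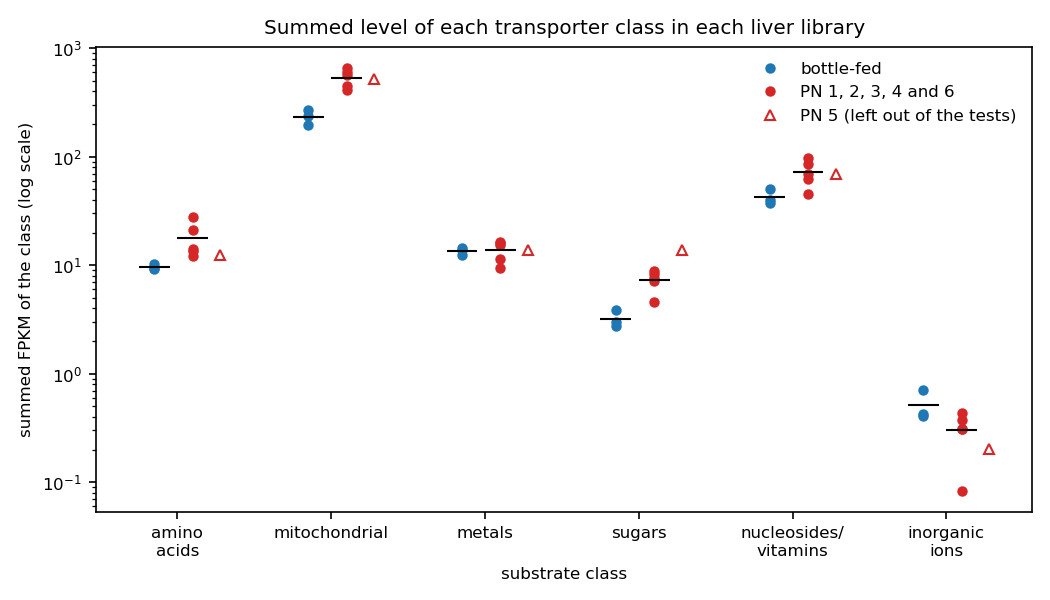
Summed FPKM of the members of 6 substrate classes in each library, on a log axis. Points are livers, black bars are group means, and open triangles are PN 5. Mitochondrial carriers ran from 195 to 269 FPKM in bottle-fed livers and from 408 to 655 FPKM with PN, and metal carriers from 12.4 to 14.5 FPKM and from 9.35 to 16.4 FPKM.

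Metal carriers changed in both directions, and their sum was nearly the same in both groups. SLC39A11, a zinc importer found on intracellular membranes, was the most abundant of the members in this class. It had 423, 659, 467, 424 and 379 normalized counts with PN and 1012, 1059 and 1019.7 in bottle-fed livers. The bottle-fed livers were within a few percent of each other (coefficient of variation 2.46%), PN 2 stood highest of the PN livers, and the log2 fold change was -1.13 ± 0.23. SLC39A10, a zinc importer of the plasma membrane, had 477, 398, 389, 518 and 251 with PN and 205, 232 and 182 when bottle-fed (log2 fold change 0.98 ± 0.28). Its exons share 2344 bases with those of DNAH7 on the opposite strand. SLC39A4, the zinc importer that is lost in the inherited zinc deficiency acrodermatitis enteropathica, had 58.5, 161, 295, 206 and 27.4 with PN and 56.4, 33.4 and 17.7 when bottle-fed. The PN livers spread 10.8-fold, PN 6 fell within the bottle-fed range, and the groups were not separated (exact permutation test, two-sided, p = 0.125, n = 5 and 3; p = 0.0833 with PN 5). The log2 fold change of 2.05 ± 0.68 had an adjusted p of 0.0119 in edgeR and of 0.0554 without bottle-fed 3.

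SLC11A1 encodes the divalent metal transporter of phagosomes in macrophages and neutrophils. It had 140.5, 225, 196, 210.3 and 163 normalized counts with PN and 89.9, 115 and 62.5 in bottle-fed livers (log2 fold change 1.07 ± 0.31), with PN 5 at 224. CSF3R, 1 of 7 neutrophil markers and the only one with counts per library, ran from 17.6 to 114 with PN and from 8.07 to 22.9 in bottle-fed livers. Their relation was not tested. The sum of the 4 metal carriers was 13.6 ± 1.08 FPKM (SD, n = 3) in bottle-fed livers and 13.7 ± 3.15 FPKM (SD, n = 5) with PN, with overlapping ranges, and the share of SLC39A11 in it was 70.4% in bottle-fed and 31.7% in PN livers.

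All 3 glucose transporter genes among the members were higher with PN. They are 3 of 21 sugar carriers in the authors' table of all genes and were selected for a difference. They and their sum therefore do not describe sugar carriers as a whole. SLC2A4 (chr12:52628450-52634967) encodes GLUT4, the insulin-responsive glucose transporter of muscle and fat. It had 76.1, 154, 188, 57.4 and 104 normalized counts with PN and 40.9, 38.0 and 37.5 in bottle-fed livers, which lay close together, and a log2 fold change of 1.57 ± 0.43. SLC2A8, an intracellular glucose transporter of the same family, had 576, 338, 401, 282 and 588 with PN and 196, 179 and 275 when bottle-fed (log2 fold change 1.01 ± 0.31), and PN 5 was the highest liver at 1182. SLC2A6, which resides in lysosomal membranes, had 46.8, 114, 177, 84.3 and 52.5 with PN and 27.8, 30.0 and 43.7 when bottle-fed (log2 fold change 1.49 ± 0.48). The lowest PN liver lay just above the highest bottle-fed liver.

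The value of SLC2A6 is uncertain for a further reason. The authors' table of all genes gives a mean of 805 normalized counts for it, above every library here (highest 177) and 11.2 times the mean of the 8 libraries, 72.0. For the other members this ratio ran from 0.558 to 1.21, and its median over all 1037 genes in both tables was 1.07 (5th to 95th percentile 0.785 to 1.87). Among these genes, 14 had a ratio above 5. Exons of SLC2A6 share 1748 bases with ADAMTS13 and CACFD1 on the opposite strand. No source used here names the libraries or the counting behind that mean. The sum of the 3 sugar carriers was 3.20 ± 0.579 FPKM (SD, n = 3) in bottle-fed and 7.32 ± 1.66 FPKM (SD, n = 5) in PN livers, and SLC2A8 made up 69.6% and 61.2% of it.

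Among the 3 members that carry nucleosides or vitamins, the most abundant one differed between the groups. They are 3 of 38 genes of this class in the authors' table of all genes and were selected for a difference. Which gene leads the whole class is therefore not shown. SLC5A6 (ENSSSCG00000008550, chr3:111920176-111976474) encodes the sodium-coupled multivitamin transporter, which takes up biotin, pantothenate and lipoate. It had 2735, 5896, 7178, 4531 and 4038 normalized counts with PN and 1699, 1171 and 1699.8 in bottle-fed livers, with PN 1 the lowest and PN 3 the highest of the PN livers, and a log2 fold change of 1.68 ± 0.34. SLC29A1 encodes the equilibrative nucleoside transporter ENT1 and had 1119.9, 1461, 965, 1351 and 1339.8 with PN and 1869.9, 2302 and 2920.4 when bottle-fed (log2 fold change -0.92 ± 0.24), with PN 5 the lowest liver at 814. Per length, SLC29A1 was first in bottle-fed livers with 24.1 ± 5.35 FPKM beside 18.4 ± 3.70 FPKM for SLC5A6 (SD, n = 3). With PN, SLC5A6 was first with 58.6 ± 20.5 FPKM beside 12.7 ± 2.03 FPKM for SLC29A1 (SD, n = 5). SLC28A3, a sodium-coupled nucleoside carrier, ran from 25.0 to 73.2 with PN and from 15.0 to 21.3 in bottle-fed livers (log2 fold change 1.29 ± 0.46), and its adjusted p in edgeR was 0.0593 without bottle-fed 2 and 0.0514 without PN 4.

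The inorganic ion carriers were the scarcest class. SLC26A5 encodes prestin, the motor protein of cochlear outer hair cells, and was at 0 in all 3 bottle-fed livers. With PN it had 0.975, 23.6, 4.81, 22.2 and 11.4 normalized counts, from 1 to 28 raw counts in a library and 68 in all, and PN 5 had 16.6. Against a floor of 3 counts over the bottle-fed group it was at least 12.8-fold higher with PN, a bound that covers counting error only. SLC24A1, a sodium/calcium-potassium exchanger known from rod photoreceptors, had 8.78, 13.5, 31.7, 28.7 and 33.1 with PN and 49.1, 47.3 and 82.3 when bottle-fed (log2 fold change -1.36 ± 0.49, adjusted p in edgeR 0.0876 without bottle-fed 3). PN 5 was the lowest liver at 7.76.

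**Figure D3:**
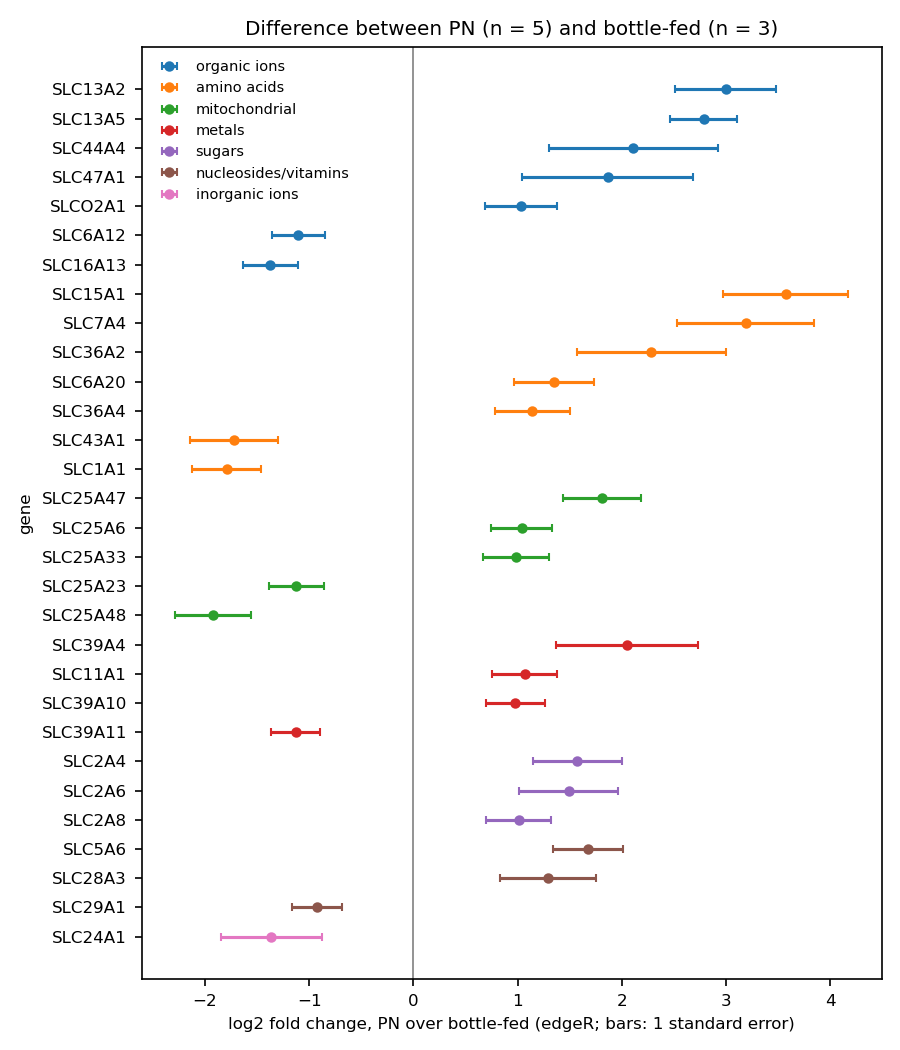
Log2 fold change of PN (n = 5) over bottle-fed (n = 3) for 30 genes, by substrate class, from edgeR on raw counts. Bars are 1 standard error, derived from the F statistic of edgeR's test as in the text. SLC26A5 is not drawn because it had no count in bottle-fed livers. Values run from -1.92 for SLC25A48 to 3.57 for SLC15A1.

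Across chromosomes, 6 members lay on chromosome 12, of which 4 were higher and 2 lower, and 5 on chromosome 1, of which 2 were higher and 3 lower. The 3 members on chromosome 2 (SLC43A1, SLC25A23 and SLC25A48) were all lower. The closest neighbours, SLC16A13 and SLC2A4 on chromosome 12, lay 188 kb apart and differed in opposite directions.

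Livers of the PN group differed more among themselves than bottle-fed livers. The median SD of log2(normalized count + 1) over the members was 0.33 in bottle-fed and 0.49 in the kept PN livers, with the larger SD in PN for 23 of 32 members, and it was 0.34 and 0.51 over all 1054 genes. Among the 5 kept PN livers, PN 2 was the highest for 11 members and PN 1 the lowest for 11. PN 3 was the highest for 7 of the 22 members that were higher with PN and PN 2 for 6 of the 10 that were lower. For 20 members PN 5 was within the range of the remaining PN livers, for 5 it was above (SLC36A2, SLC43A1, SLC39A10, SLC44A4 and SLC2A8) and for 7 below (SLC1A1, SLC24A1, SLC25A23, SLC25A48, SLC29A1, SLC13A5 and SLC6A12). It lay outside this range for 49.9% of all 1054 genes. With PN 5 included, 30 of the 32 members did not overlap between the groups, as did 82.6% of all 1054 genes.

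**Figure D4:**
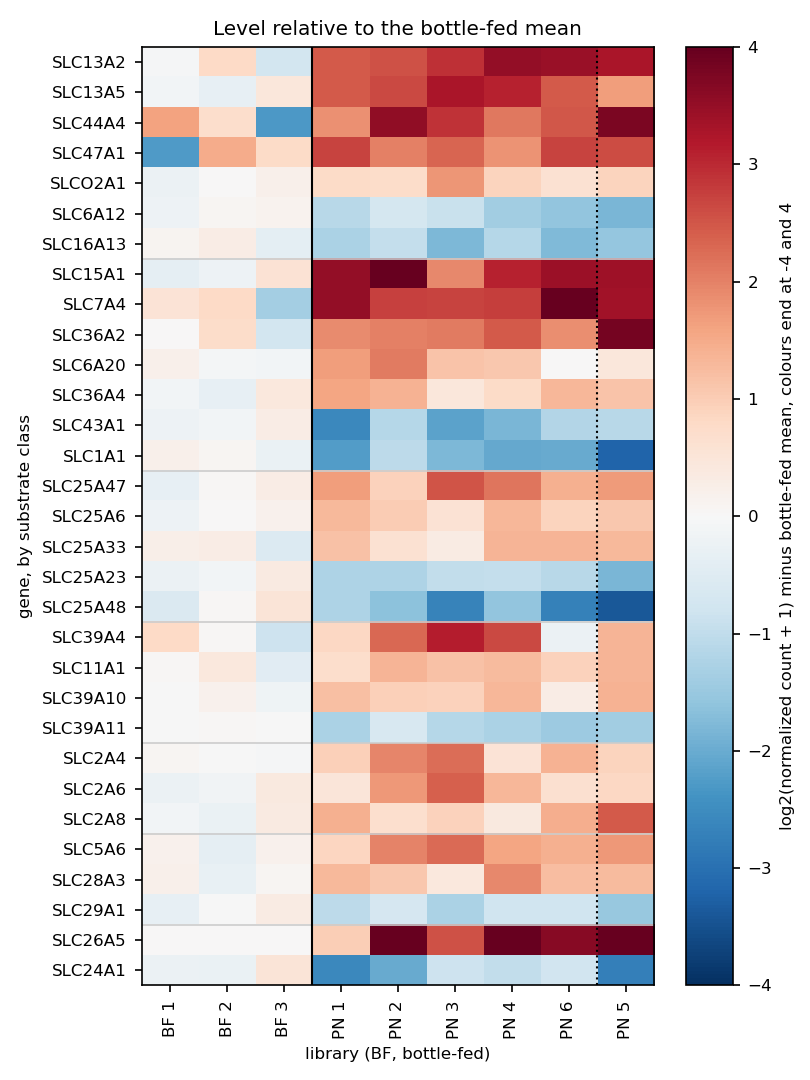
Log2(normalized count + 1) of 31 genes in each library minus its bottle-fed mean, with colours ending at -4 and 4. Columns are the bottle-fed livers, the kept PN livers and, right of the dotted line, PN 5. In the PN columns the 22 genes higher with PN lie on the red side and the 9 lower ones on the blue side, apart from SLC39A4 in PN 6, which is faintly blue. Some other cells are near white, such as SLC6A20 and SLC39A10 in PN 6.

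The members were a small part of the family in this tissue. The authors' table of all 16223 genes, which gives 1 mean over libraries for each gene, held 281 SLC genes with a symbol after the same 9 were left out. Of these, 32 (11.4%) were among those with counts per library. The paper reports more differing genes than have counts per library, so this is not the share of SLC genes that differed. The share was 6.39% over all 16223 genes, of which only 12470 had a symbol. The 2 shares have unlike bases, and their difference is not read as a result. By class, the share of the SLC genes was 17.5% for carriers of amino acids (7 of 40), 14.3% for metals (4 of 28), 14.3% for sugars (3 of 21), 13.8% for organic ions (8 of 58), 13.5% for mitochondrial carriers (5 of 37), 7.89% for nucleosides and vitamins (3 of 38) and 4.08% for inorganic ions (2 of 49). All 8 lipid carriers of that table, and 2 genes that could not be classed, had no counts per library. The classes also differed in level (median of the authors' mean 42.6 for inorganic ions and 550 for metals, for example). Differences between the class shares are therefore not read as a result. By the authors' mean, SLC25A6 ranked first of the 281 and SLC25A47 ranked 7, while SLC26A5 ranked 263.

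Other transport genes with counts per library were few, 5 of 112 listed. MFSD2A, a sodium-coupled transporter of lysophosphatidylcholine, had 8.07 to 53.1 normalized counts in bottle-fed livers (n = 3) and 591 to 1483 with PN (n = 5). The groups were far apart, with a log2 fold change of 5.13 ± 0.61 (SE). AQP3, a water and glycerol channel, and MFSD6 were also higher with PN (log2 fold changes of 3.05 ± 0.77 and 1.82 ± 0.36). KCNQ3, a potassium channel subunit, and TRPM3, a cation channel, were lower (-3.24 ± 0.49 and -1.66 ± 0.35). All 5 were past an adjusted p of 0.05 in edgeR, which again holds for 99.7% of the genes tested.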

How the data were processed

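The members and all lists used here were chosen with earlier results of these data known. Polyadenylated RNA was sequenced as paired reads, all samples in 1 batch. After cleaning of the reads, the authors used HISAT2 2.0.5 for mapping to the pig genome Sscrofa11.1 and featureCounts 2.0.3 for counting, per the paper and the submitters' processing notes, which name DESeq2 1.26.0 while the paper names another version. The deposited counts are raw reads per gene and library, given for the 1054 genes that the authors had selected as differing between the groups. The normalized signal values are the authors' counts divided by 1 size factor per library. The FPKM values, as deposited, are the authors' counts scaled to gene length and depth, from which library totals were recovered. The mean signal in the authors' table of all genes is taken as the authors' mean. The authors' columns of log2 fold changes, standard errors, test statistics and p-values were not used.

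Raw counts of all 1054 genes were fitted with edgeR 4.0.16 in R 4.3.3 (quasi-likelihood test, the authors' size factors, no filter, Benjamini-Hochberg adjustment over these genes, threshold 0.05) over 8 libraries, without PN 5. Single genes were also compared on log2(normalized count + 1) with a two-sided exact permutation test, whose 56 splits (84 with PN 5) allow no p under 0.0179 (0.0119). The labels name separate samples and the paper separate piglets, and p-values measure the spread between these piglets only. No pair of libraries agreed within sampling noise (36 pairs, chi-square of at least 76.8 per degree of freedom). Values per library are given, per class, for up to 4 members with the largest fold change among those averaging 50 or more normalized counts in a group, the member with the highest count, and members whose groups overlap or that have no count in a group. Substrate classes follow the human gene family. An organic ion carrier that this rule takes, its class sum and a promoter are not reported here, while counts over the members include that carrier. Symbols for the table of all genes were found for 12470 of 16223 identifiers. Promoters came from the RefSeq annotation of Sscrofa11.1. Alternatives were all 9 libraries, each library left out, TMM, library totals, filterByExpr, DESeq2 1.42.0, a replicate block, an adjusted p under 0.01, and pseudocounts of 0.5 and 5. The tests were tried on simulated data. Counting intervals and floors cover counting error only. Calculations also used matplotlib 3.10.9, scipy 1.17.1, pandas 2.3.3 and numpy 2.4.6 in Python 3.11.15.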

Additional observations from a re-analysis of the deposited data

Results flagged for a closer look

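For each member, the highest and lowest PN livers were compared with the nearest of the others, as the gap over the whole range of the group on log2(normalized count + 1), without and with PN 5. Of 64 such groups 5 had a liver far from the others. The groups without and with PN 5 share livers, and PN 5 had been left out as an outlier, so no chance rate is set beside this count. SLCO2A1 stood high in PN 3 with 274 normalized counts, both without and with PN 5 in the group (gap 0.761 of the range each time). SLC39A11 stood high in PN 2 with 659 normalized counts among the 6 PN livers (0.625). PN 5 itself stood low for SLC25A23 with 67.7 normalized counts (0.651) and high for SLC36A2 with 47.7 (0.704). None of these genes had overlapping groups, and each kept its direction when the liver in question was left out.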

How the results depend on the processing

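No member changed direction under any alternative. The 22 higher and 10 lower calls stood unchanged in number with all 9 libraries, TMM on these genes (which shifts the median of all genes by -0.09), library totals, filterByExpr (which all 32 members passed) and DESeq2. Over all genes these settings called 538 to 573 higher and 454 to 481 lower, of the 994 that passed filterByExpr and of 1054 otherwise. At an adjusted p under 0.01 there were 15 and 9 members, without a count over all genes. Leaving out 1 library gave 19 to 21 higher and 9 to 10 lower calls, beside 511 to 562 and 451 to 481 of all 1054 genes. Members without overlap were then 20 to 22 higher and 10 lower, again without a count over all genes. As the genes were selected for this contrast, these counts are not read as a result about the members. With 1 library left out, the median log2 ratio of the members ran from 1.07 to 1.25, the highest value coming without bottle-fed 3. It was 1.18 with all 9 libraries, 1.09 with library totals and 1.10 and 1.06 with pseudocounts of 0.5 and 5. As given above, this median depends on how many members were higher. With a pseudocount of 5 the log2 ratio of means shrank for 3 scarce members, from 3.77 to 1.82 for SLC26A5, from 1.96 to 1.25 for SLC36A2 and from 3.00 to 2.40 for SLC7A4, as a larger pseudocount does by construction.

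Bottle-fed and PN livers share replicate numbers, but same-numbered livers did not deviate together (correlations of -0.027, -0.0453 and -0.019). These correlations gave no sign of a pairing but cannot exclude one. A replicate block left 18 higher and 10 lower calls, and lost SLC25A6, SLC25A33, SLC28A3 and SLC47A1 (adjusted p in edgeR 0.0586, 0.0506, 0.138 and 0.0604). Over all 1054 genes the block called 499 higher and 438 lower. The fitted log2 fold change of SLC26A5, which rests on a prior count, was 6.72 in edgeR, 6.08 with the block and 6.11 in DESeq2. The causes were not tested. Members under 50 normalized counts are limited by depth, and the zero counts of SLC26A5, SLC44A4 and SLC47A1 in bottle-fed livers do not show absence.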
